A study of Schizosaccharomyces pombe with 4 samples.

Results

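The genes at the left end of chromosome II of fission yeast (*Schizosaccharomyces pombe*) were followed, gene by gene, in cells lacking the histone methyltransferase Set2. The members are the genes whose systematic names carry the prefix of 1 of 5 cosmids, in order from the chromosome end SPBC1348, SPBPB8B6, SPBPB10D8, SPBC359 and SPBC1683. The genes SPBC1348.14c (ght7), SPBC359.04c (pfl7), SPBC1683.08 (ght4) and SPBC1683.09c (frp1) were left out by the rule and appear only as neighbours. This gave 41 members of the 6986 genes in the deposited table, 39 of them protein-coding and 2 pseudogenes. A further cosmid, SPBPB21E7, lies between SPBPB8B6 and SPBPB10D8 and is described with the neighbours.

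The study compared 2 RNA-seq libraries of wild-type cells (strain WT972, here WT) with 2 of set2 deletion cells (strain SPKK1227, here set2d). All 4 came from total RNA of asynchronous cells in log phase, grown in YEA medium at 30 °C. The labels name no other allele or agent, and each genotype is represented by 1 strain. Whether the replicates were grown as separate cultures is not in the labels. The p-values therefore cover the spread between these libraries alone, which may be technical. RNA was taken from whole cultures, so a gene active in more cells and more RNA per cell cannot be told apart.

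Set2 travels with elongating RNA polymerase II and methylates lysine 36 of histone H3 over transcribed genes. The subtelomeres of fission yeast carry heterochromatin marked by methylation of lysine 9 of histone H3 next to the telomere, and further in a condensed chromatin domain seen as a knob under the microscope, whose formation is known to need Set2. Subtelomeric genes are known for low activity in rich medium and for induction under nutrient stress, and many encode transporters and catabolic enzymes.

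Values were normalized read counts per gene, and the authors raised every value below 10 to 10, so that 10 is the floor of the table. The 4 libraries had a median of 5050 to 5518 normalized counts over genes and 363 to 402 genes at the floor. Across genes, which are not independent replicates, the Pearson r between the replicates' log2 values was 0.994 for WT and 0.989 for set2d. Transcript of the deleted gene, set2, was at 10503 and 8665 normalized counts in WT and at 2257 and 1448 in set2d. Its log2 change was -2.40 (SE 0.22, limma adjusted p = 0.00041), and it was not at the floor in set2d. Which bases the deletion removes is not stated in the labels. In set2d replicate 1 the values of all 684 genes at 10 to 400 normalized counts were whole multiples of 1.06 within a tolerance of 0.012, so the floor there was 9.42 reads. No such step was used for the other 3 libraries, whose depth is unknown.

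Most members that could be tested were higher in set2d. Among the members without a near-identical copy elsewhere, as defined below, increases tended to be larger toward the chromosome end. Of the 41 members, 31 could be tested, 23 were higher, 0 were lower and 8 did not pass (limma, Benjamini-Hochberg adjusted p under 0.05 over all genes). The 23 include SPBC1348.05, which was at the floor in both WT libraries and so entered the test only because it was above the floor in set2d. They also include SPBC1348.07 and SPBC1348.08c, which were above the floor in only 1 WT library and so also needed set2d to enter. Without adjustment, 26 members were higher and 0 lower at p under 0.05. Fitting limma with no trend gave 22 and 0. The count fell to 13 when set2d replicate 2 was left out and to 8 when every gene of the table, floored ones included, was fitted. Over all 6633 genes tested 11.6% were higher and 2.77% lower, against 56.1% of the 41 members higher. Those shares are 767 and 184 genes, which became 574 and 275 under quantile normalization and 617 and 343 under median centring. The median log2 change over all 41 members was 0.76, with genes at the floor entering at their floored value, and over all genes of the table it was 0.00. Both set2d libraries lay above both WT libraries for 26 members and below them for 1 (31.5% and 26.2% of all genes tested). With 2 libraries in each group an exact permutation test of a single gene cannot go below a p of 0.333, so single values rest on the fit across all genes.

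The 10 untested members were at the floor in at least 3 libraries, and 8 of them in all 4. All 10 have a near-identical copy, here at least 95% identity over at least 50% of the length, at another place in the genome. Altogether 17 members had such a copy, and 3 of these 17 were higher. These 3, SPBC1348.05, SPBC1348.07 and SPBC1348.08c, would not have entered the test on their WT values alone. Of the 24 members without one, 24 were tested, 20 were higher, 0 were lower by limma and 4 did not pass (22 and 0 at an unadjusted p under 0.05). The sources used here do not give how reads matching several places were counted, and its part in the floor values was not tested.

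**Figure D1:**
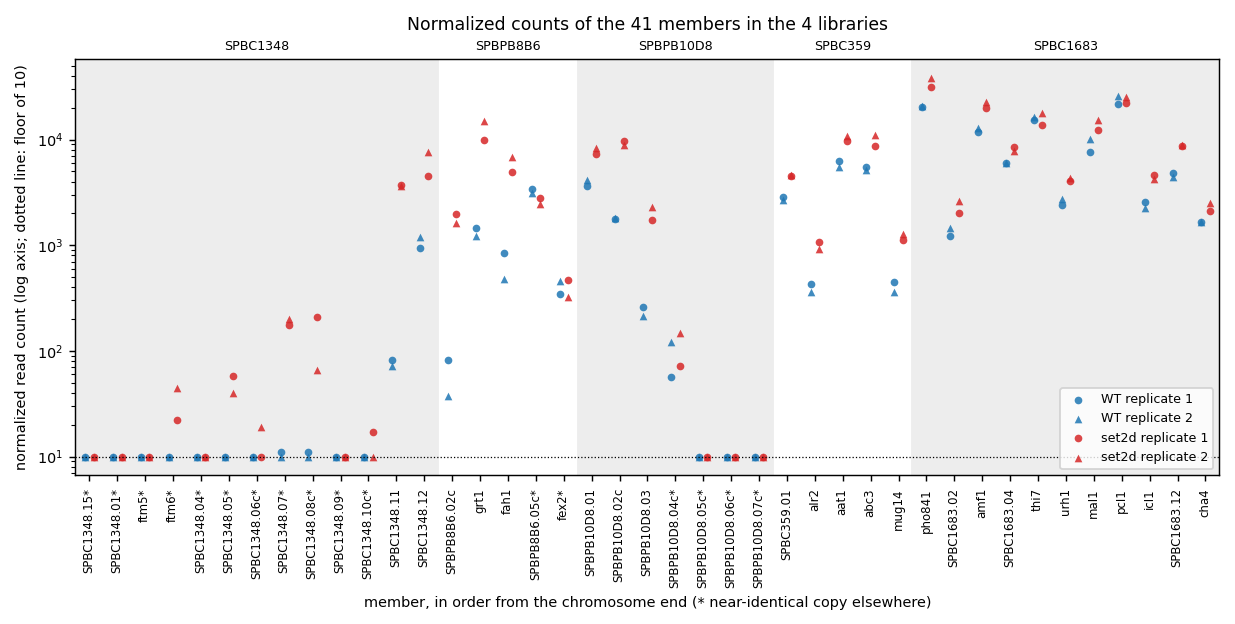
Normalized read counts on a log axis of the 41 members in order from the chromosome end, with 1 point for each of the 4 libraries (blue WT, red set2d, circles replicate 1, triangles replicate 2) and cosmids as shaded bands. Most points of members with an asterisk, those with a near-identical copy, sit on the dotted floor at 10. For 22 of the 24 members without an asterisk both red points lie above both blue ones, as for 31.5% of all genes tested.

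Next to the telomere, on cosmid SPBC1348, RNA was close to the floor in WT for the genes that have copies. Of the 13 members on this cosmid, 5 were higher, 1 did not pass and 7 were not tested. SPBC1348.15, SPBC1348.01 and ftm5, which lie outermost, were at the floor in all 4 libraries, and so were the methyltransferase gene SPBC1348.04 and the dehydrogenase gene SPBC1348.09. SPBC1348.15 and SPBC1348.01 encode uncharacterized proteins, and ftm5 encodes a protein with transmembrane helices. SPBC1348.06c, for a protein with a Vel1p domain, was above the floor only in set2d replicate 2, at 19.2, and the phospholipase gene SPBC1348.10c only in set2d replicate 1, at 17.0. These values are close to the floor in every library and carry no comparison.

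The transporter gene SPBC1348.05 was at the floor in both WT libraries and at 57.4 and 39.9 normalized counts in set2d. Its mean of 48.6 ± 12.3 (SD, n = 2) was at least 4.86-fold higher, and the log2 change of 2.26 (SE 0.47, limma adjusted p = 0.0154) is against floored values. The gene ftm6, for a protein with transmembrane helices, had floor values in WT but 22.3 and 44.9 in set2d, with a limma adjusted p = 0.0775 that did not pass. Both genes entered the test only through set2d, where they were above the floor.

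SPBC1348.07, annotated as an uncharacterized protein, had 11.0 normalized counts in WT replicate 1, the floor in WT replicate 2, and 177 and 201 in set2d. Its log2 change was 4.17 (SE 0.40, limma adjusted p = 0.000446). The glycoprotein gene SPBC1348.08c had the same WT values, and its set2d values of 208 and 66.2 lay above them but differed between replicates by more than the values of SPBC1348.07 did. Its log2 change of 3.48 was 4.31 without set2d replicate 2 and 2.66 without set2d replicate 1. With 50 added to every value before the logarithm, the changes of SPBC1348.05, SPBC1348.07 and SPBC1348.08c were 0.71, 1.98 and 1.52, and the call of SPBC1348.05 was lost (limma adjusted p = 0.0505). All 3 have near-identical copies at other chromosome ends, so which copy gave the reads is uncertain. SPBC1348.07 and SPBC1348.08c, like SPBC1348.05, entered the test only with the set2d libraries, where they were high.

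The innermost genes of this cosmid have no copy, and they rose from measurable levels. SPBC1348.11, a pseudogene annotated as a membrane transporter, had 82.2 and 72.4 normalized counts in WT and 3692 and 3623 in set2d. The set2d libraries were nearly equal and both lay far above WT, a 47.3-fold difference of means and a change of 5.57 on the log2 scale (SE 0.24, limma adjusted p = 1.66e-05), the largest among the members. Beside it, SPBC1348.12, annotated as a DNA-binding transcription factor, had 935 and 1208 in WT and 4480 and 7654 in set2d. Both set2d libraries lay above both WT libraries, as for 31.5% of all genes tested. The log2 change was 2.46 (SE 0.27, limma adjusted p = 0.000771). The left-out hexose transporter gene ght7, the next gene inward, went from 103 ± 3.03 to 2595 ± 580 (SD, n = 2 in each group).

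On cosmid SPBPB8B6 a block of 3 genes rose steeply and the 2 genes beside it did not pass. The urea transporter gene SPBPB8B6.02c, whose product brings urea into the cell, had 82.2 and 37.8 normalized counts in WT and 1978 and 1626 in set2d. The means differed 30.04-fold, and the log2 change was 5.01 (SE 0.39, limma adjusted p = 0.000185). The transcription factor gene grt1 had 1465 and 1234 in WT and 9886 and 14822 in set2d, a change of 3.17 on the log2 scale (SE 0.21, limma adjusted p = 8.29e-05). The acetamidase gene fah1, whose enzyme releases ammonia from amides, had 844 and 478 in WT and 4949 and 6842 in set2d, a log2 change of 3.20. For all 3 genes both set2d libraries were above both WT libraries, as for 31.5% of all genes tested. In the ASM294v3 annotation fah1 lies entirely within the transcribed region of grt1 on the opposite strand, and 71.2% of grt1 is overlapped by other genes. The sources used here do not state how the authors assigned reads in such overlaps. Some overlapping genes on opposite strands had nearly equal values. In WT SPBPB21E7.08 had 8113 and 10253 and SPNCRNA.1305 had 8064 and 10192. In set2d they had 13842 and 16030, and 13763 and 15917. The same reads may thus be counted in both genes of a pair, and the changes of grt1 and fah1 cannot be told apart.

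The L-asparaginase gene SPBPB8B6.05c, whose enzyme releases ammonia from asparagine, had 3413 and 3116 normalized counts in WT and 2826 and 2441 in set2d. It was the 1 member with both set2d libraries below both WT libraries, but its log2 change of -0.31 (95% interval -0.69 to 0.07, limma adjusted p = 0.258) did not pass. The fluoride export channel gene fex2 had 348 and 459 in WT and 473 and 320 in set2d. Its groups overlapped, with a log2 change of -0.04 (95% interval -0.74 to 0.66, limma adjusted p = 0.954). Whether they differ from the neighbours that rose was not tested.

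Both genes have a near-identical copy at the left end of chromosome I, so their reads may come from either place. The copy of SPBPB8B6.05c, SPAC977.12, had 5644 and 4667 normalized counts in WT and 4349 and 3196 in set2d, a log2 change of -0.46 (limma adjusted p = 0.153). The copy of fex2, fex1, had 255 and 285 in WT and 255 and 252 in set2d, a log2 change of -0.09 (limma adjusted p = 0.876). Neither copy passed. The copies are 95.3% and 99.9% identical to the members. Other members share their copies with genes that rose, since 12 of the 32 genes listed as copies of members passed as higher, beside 11.6% of all genes tested. Of the 12, only SPAC977.18 and SPBCPT2R1.04c were above the floor in both WT libraries, and the rest entered the test only with set2d. The 32 include the members SPBPB10D8.04c, SPBPB10D8.05c, SPBPB10D8.06c and SPBPB10D8.07c, which are copies of each other. Among the 12 is ftm4, a copy of ftm5, which went from 10, the floor, and 10.04 in WT to 756 and 915 in set2d.

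Cosmid SPBPB10D8 combined a group of unique genes that rose with a family of 4 transporter genes. The cysteine transporter gene SPBPB10D8.01 had 3664 and 4127 normalized counts in WT and 7273 and 8389 in set2d, a change of 1.01 on the log2 scale (SE 0.14, limma adjusted p = 0.00295). Its call was lost without set2d replicate 2, at a log2 change of 0.90. The arylsulfatase gene SPBPB10D8.02c, whose enzyme releases sulfate from sulfate esters, had 1756 and 1801 in WT and 9687 and 8830 in set2d. Its log2 change was 2.38 (SE 0.14, limma adjusted p = 5.88e-05), and the RNA SPNCRNA.1307 on the opposite strand, which covers most of it, had a log2 change of 2.41. The changes of SPBPB10D8.02c and this RNA cannot be told apart. The transporter pseudogene SPBPB10D8.03 had 260 and 213 in WT and 1717 and 2319 in set2d, a log2 change of 3.09 (limma adjusted p = 0.00024). In these 3 genes both set2d libraries lay above both WT libraries, as in 31.5% of all genes tested.

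The transporter genes SPBPB10D8.04c, SPBPB10D8.05c, SPBPB10D8.06c and SPBPB10D8.07c are near-identical copies of each other in tandem. The last 3 were at the floor in every library. SPBPB10D8.04c had 56.6 and 123 normalized counts in WT and 72.2 and 146 in set2d, with overlapping groups and a log2 change of 0.30 (95% interval -0.86 to 1.46, limma adjusted p = 0.742). Replicates within each group differed by more than the group means did, and the sign of the change turned without WT replicate 1, at -0.25, and without set2d replicate 2, at -0.21.

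**Figure D2:**
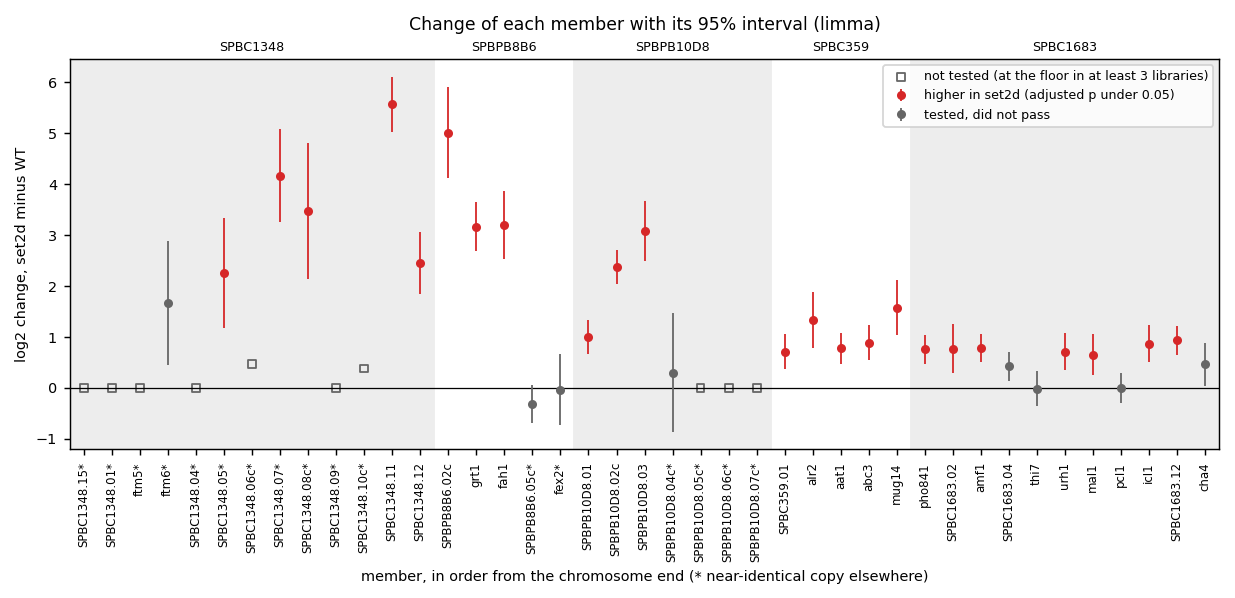
Log2 change, set2d minus WT, of each of the 41 members in order from the chromosome end, with bars for the 95% interval of the limma fit, red for members that passed and grey for those that did not, and open squares for untested members. The highest change is 5.57 on SPBC1348 and 0.93 on SPBC1683.

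Further in, on cosmid SPBC359, all 5 members were higher, by smaller amounts. The amino-acid permease gene SPBC359.01 had 2863 and 2663 normalized counts in WT and 4470 and 4598 in set2d, a log2 change of 0.72. Another amino acid permease gene, aat1, had 6311 and 5542 in WT and 9602 and 10765 in set2d, a log2 change of 0.78. The gene alr2, for alanine racemase, which interconverts the mirror forms of alanine, had 426 and 362 in WT and 1062 and 922 in set2d, a change of 1.34 on the log2 scale (SE 0.24, limma adjusted p = 0.00797). SPNCRNA.1309 on the opposite strand overlaps 63.7% of its length and had 435 and 352 in WT and 1039 and 900 in set2d. The changes of alr2 and this RNA cannot be told apart. The gene abc3, annotated as a multidrug resistance-associated protein, had 5446 and 5177 in WT and 8747 and 11098 in set2d, a log2 change of 0.89. Non-coding RNAs overlap 57.5% of its length. Of these, SPNCRNA.1312 on the opposite strand had a log2 change of 0.79, SPNCRNA.294 had -0.12 and SPNCRNA.1313 had -0.04. The changes of abc3 and SPNCRNA.1312 cannot be told apart. The gene mug14, for an adducin, a kind of protein that acts on the actin cytoskeleton, had 444 and 364 in WT and 1129 and 1272 in set2d, a change of 1.58 on the log2 scale (SE 0.24, limma adjusted p = 0.00347). In these 5 genes both set2d libraries lay above both WT libraries, as in 31.5% of all genes tested.

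These calls needed most of the libraries. That of SPBC359.01 was lost without any one of the 4, those of alr2 and aat1 without WT replicate 2 or either set2d replicate, that of mug14 without either set2d replicate and that of abc3 without set2d replicate 2. The log2 changes moved little in those fits, from 0.66 to 0.77 for SPBC359.01, 1.22 to 1.45 for alr2, 0.69 to 0.88 for aat1, 1.43 to 1.72 for mug14 and 0.72 to 1.06 for abc3. The left-out cell surface glycoprotein gene pfl7, which lies between aat1 and abc3, had a log2 change of 1.79.

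On the innermost cosmid, SPBC1683, 7 of the 11 members were higher, by 0.65 to 0.93 on the log2 scale, and 4 did not pass. The phosphate transporter gene pho841 had 20220 and 20956 normalized counts in WT and 31566 and 38439 in set2d, a change of 0.76 on the log2 scale (SE 0.12, limma adjusted p = 0.00546). The transporter gene amf1 had 11757 and 12915 in WT and 20040 and 22611 in set2d, a log2 change of 0.79. The gene SPBC1683.12, for a transporter of nicotinic acid, a precursor of NAD, had 4781 and 4466 in WT and 8751 and 8883 in set2d. Its log2 change of 0.93 (SE 0.13, limma adjusted p = 0.00228) was the largest on this cosmid. With single libraries left out, the log2 change ranged from 0.62 to 0.90 for pho841, 0.70 to 0.88 for amf1 and 0.88 to 0.98 for SPBC1683.12.

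Enzyme genes of the same cosmid rose by similar amounts. The gene icl1, annotated as isocitrate lyase, had 2565 and 2245 normalized counts in WT and 4585 and 4209 in set2d, a log2 change of 0.87. The uridine ribohydrolase gene urh1, whose enzyme splits uridine into uracil and ribose, had 2415 and 2732 in WT and 4092 and 4347 in set2d, a log2 change of 0.72. The maltase gene mal1 had 7560 and 10172 in WT and 12331 and 15447 in set2d, a log2 change of 0.65 (limma adjusted p = 0.0396). Other genes overlap 54.3% of mal1, among them SPNCRNA.1317 and SPNCRNA.1318, with log2 changes of 0.73 and 0.37 that did not pass. Reads in the overlap may be counted in both. SPBC1683.02, annotated in the adenine and adenosine deaminase family, had 1223 and 1465 in WT and 1998 and 2604 in set2d, a log2 change of 0.77 (limma adjusted p = 0.045). In each of these genes both set2d libraries lay above both WT libraries, as in 31.5% of all genes tested.

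The calls of SPBC1683.02 and urh1 were lost without any one library, that of mal1 without WT replicate 1 or either set2d replicate, and that of icl1 without WT replicate 2 or either set2d replicate. The log2 changes then ranged from 0.58 to 0.96 for SPBC1683.02, 0.63 to 0.80 for urh1, 0.44 to 0.87 for mal1 and 0.78 to 0.97 for icl1. The calls of SPBC1683.02 and mal1 were also lost under quantile normalization, at 0.65 and 0.58, and under median centring, at 0.68 and 0.56, as well as by limma without a trend.

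Among the 4 genes of this cosmid that did not pass, values differed. The iron transporter gene pcl1 had 21653 and 25794 normalized counts in WT and 22197 and 25008 in set2d, a log2 change of -0.00 (95% interval -0.30 to 0.29). The transporter gene thi7 had 15267 and 16242 in WT and 13600 and 17947 in set2d, a log2 change of -0.01 (95% interval -0.35 to 0.32). The groups of both overlapped. The non-coding RNA SPNCRNA.1316, which overlaps thi7, had a log2 change of -0.02, and SPNCRNA.100, which overlaps pcl1, had -0.37, and neither passed. SPBC1683.04, for a glycosyl hydrolase, had 6024 and 6041 in WT and 8427 and 7810 in set2d, a log2 change of 0.43 (limma adjusted p = 0.0555). The innermost member, the transcription factor gene cha4, had 1666 and 1673 in WT and 2113 and 2507 in set2d, a log2 change of 0.46 (limma adjusted p = 0.137).

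Along the order of the members, the median log2 change of those without a copy was 4.01 for 2 genes on SPBC1348, 3.20 for 3 on SPBPB8B6, 2.38 for 3 on SPBPB10D8, 0.89 for 5 on SPBC359 and 0.72 for 11 on SPBC1683. Across these 24 genes the log2 change and the order from the end had a Spearman rho of -0.78, and it was -0.72 in number 1 libraries and -0.81 in number 2 libraries. This describes genes that share libraries and, in part, reads, since some overlap. With overlapped genes left out it was -0.67 over 17 genes. The WT level per kilobase of gene also rose along the order, with a rho of 0.68, so position and WT level cannot be told apart. In set2d the level per kilobase had a rho of 0.28 with the order.

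**Figure D3:**
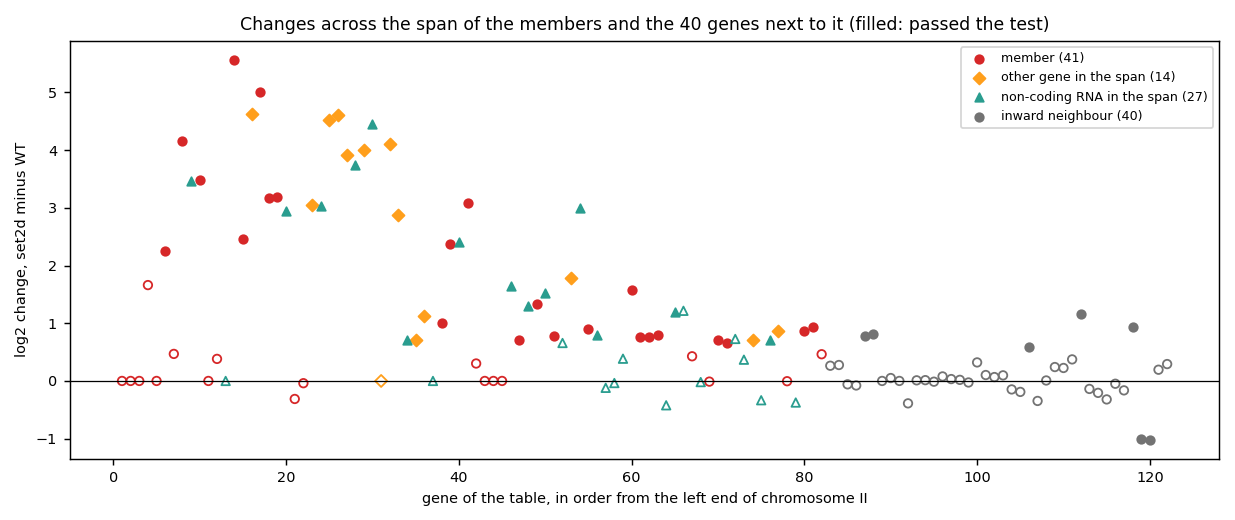
Log2 change, set2d minus WT, of the 122 measured genes from the end of chromosome II through the 40 genes beyond the innermost member, by their order in the annotation. Filled points passed the test. Filled red, orange and green points reach 5.57 in the span, while of the 40 grey inward neighbours 7 are filled.

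By distance from the chromosome end, 8 of the 16 members in the outermost 50 kb were higher. From there to 100 kb 3 of 9 were, and these outer bands hold all 17 members with a copy. Between 100 and 150 kb 8 of 10 members were higher, and in the innermost band, which ends at 200 kb, 4 of 6. Over the tested members of each band the median log2 change was 3.20, 0.65, 0.78 and 0.68, going inward. Among members beyond 100 kb the highest change was the 1.58 of mug14.

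By role, the members were 15 transporters, 12 enzymes, 6 genes with another annotated product, 6 with no named function and 2 pseudogenes. Transporters made up 38.5% of the coding members and 4.66% of all coding genes, counted by the same words in the annotated product. Of the 15 transporter genes 8 were higher and 3 were not tested, and the 4 that did not pass were fex2, SPBPB10D8.04c, thi7 and pcl1. Of the 12 enzyme genes 7 were higher, 3 were not tested and 2, SPBPB8B6.05c and SPBC1683.04, did not pass. Of transporter genes more than 200 kb from any end, 26 of 187 were higher, or 13.9%, with a median log2 change of -0.05. Of enzyme genes there 178 of 1782 were higher, or 9.99%, with a median of -0.01.

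The members are also mostly genes without introns. In the annotation 84.6% of the 39 coding members have 1 exon, against 51.6% of all coding genes. Their median length was 1495 bp against 1774 bp, and their median GC content 35.8% against 36.8%. Of the 41 members 19 are transcribed toward the chromosome end and 22 away from it.

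Levels were compared between genes per kilobase of annotated length, as a rank among all coding genes of the same group. The 22 coding members without a copy had a median percentile of 13.0 in WT and 48.3 in set2d, where 50 is the middle of all coding genes. In WT 9 of the 22 were in the lowest 10% and 4 above the middle, and in set2d 4 and 10 were. The gene fah1 moved from percentile 4.64 to 49.9, SPBC1348.12 from 7.23 to 55.6 and SPBPB10D8.02c from 7.66 to 54.8. Other genes overlap 100% of fah1 and 80.7% of SPBPB10D8.02c, so these 2 ranks may include reads of the overlapping genes. The urea transporter gene SPBPB8B6.02c moved from percentile 1.43 to 6.97, so that even a 30.04-fold higher level left it among the lower coding genes. The highest levels per kilobase belonged to pcl1 in WT and to pho841 in set2d.

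**Figure D4:**
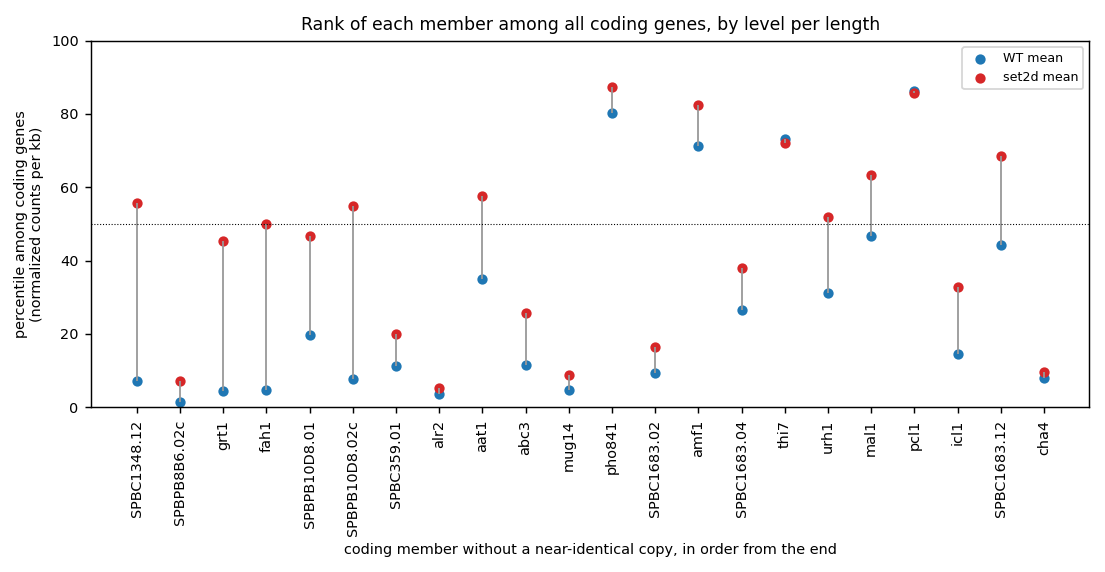
Percentile of each of the 22 coding members without a near-identical copy among all coding genes, by mean normalized counts per kilobase, in WT (blue) and set2d (red), in order from the chromosome end. The dotted line is the middle of all coding genes, above which lie 4 blue and 10 red points. The longest lines belong to outer genes such as SPBC1348.12 and fah1, though fah1 may share reads with grt1.

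Of the other 41 measured genes within the span 27 were higher and 0 lower by limma, 11 did not pass and 3 were not tested (29 and 0 at an unadjusted p under 0.05, 22 and 0 without a trend). Those 27 were 65.9% of the 41, while 11.0% of all genes of the table were higher. The median log2 change of the 41 was 1.20. Leaving out set2d replicate 1 gave 16 instead of 27, leaving out set2d replicate 2 gave 15, and fitting every gene of the table gave 11. On cosmid SPBPB21E7 9 of 10 genes were higher and the tenth, SPBPB21E7.05, was at the floor in all libraries. The enolase gene eno102, for a step of glycolysis, went from 1936 ± 103 to 16212 ± 3176 normalized counts, with 79.2% of it overlapped by SPNCRNA.1302. That RNA, on the opposite strand, went from 1833 ± 143 to 15078 ± 3209, and the changes of the pair cannot be told apart. The 27 count such overlapping genes separately, though they may share reads. The catechol O-methyltransferase gene cmt2 went from 368 ± 170 to 6019 ± 3303, and aes1, of the phenazine biosynthesis family, from 2458 ± 93.1 to 18429 ± 5603 (SD, n = 2 in each group). A second L-asparaginase gene, SPBPB21E7.09, rose by 1.12 on the log2 scale (limma adjusted p = 0.00787), and it has a near-identical copy at the right end of chromosome I. Of 27 non-coding RNAs in the span 14 were higher, or 51.9%. Of the 9 of them that no other measured gene overlaps 5 were, or 55.6%, beside the same 11.0% of all genes. One of these 5, SPNCRNA.293, went from 510 ± 90.9 to 4060 ± 774.

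Beyond the innermost member the changes were few. Of the 40 next measured genes, from SPBC1198.01 to SPBC660.16, 5 were higher and 2 lower, and their median log2 change was 0.02. The first 4 of these genes did not pass. The transcription regulator gene zas1 had a log2 change of 0.77 together with SPNCRNA.1321, which overlaps it, and mef2, for a mitochondrial elongation factor, had 1.16. Of the 39 that could be tested 12.8% were higher, close to the 11.6% of all genes. The 2 lower calls were lost when any one library was left out, and 2 to 4 genes were then higher, 2 without either set2d replicate and 3 without WT replicate 2.

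Coding genes and pseudogenes as near to an end as the members were also counted for the other ends of chromosomes I and II. On the left of chromosome II 36 of 44 tested genes were higher, which is 81.8% of those tested and 65.5% of the 55 in the table. On the right of chromosome I 34 of 53 were, or 64.2% of those tested and 59.6% of the 57 in the table. On the left of chromosome I the shares were 42.4% and 39.4%, and on the right of chromosome II 46.9% and 40.4%. The difference between ends was not tested, and the genes at an end are not independent.

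A list of 27 genes for factors connected with subtelomere silencing or with Set2-linked deacetylation was chosen with earlier results of these data known. Of these 27, 8 were higher, 1, set2, was lower and 18 did not pass. The 8 are 29.6% of the list, beside 11.6% of all genes tested. Of the 8, the gene mit1, for a chromatin remodeller of a silencing complex, had 2552 and 2754 normalized counts in WT and 6895 and 8596 in set2d. The gene clr4, for the methyltransferase of lysine 9 on histone H3, had 4200 and 3793 in WT and 11949 and 10368 in set2d. In the annotation 54.2% of clr4 is overlapped by SPBC428.07, and 35.5% of mit1 by SPNCRNA.1401 and SPBP35G2.11c. Reads in these overlaps may be counted in both genes. The gene sgo2, for a shugoshin protein found at subtelomeres, had a log2 change of 0.56 (limma adjusted p = 0.0233), and the RNA SPNCRNA.930 overlaps all of it. The median log2 change of the 27 was 0.03.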

How the data were processed

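Per the labels' protocols, total RNA of 2 WT and 2 set2d samples was sequenced on an Illumina HiSeq 2000. Per the submitters' processing notes, STAR 2.5.4b, featureCounts 1.5.0-p1 and the build ASM294v2 were used. The sources used here do not give the annotation, the normalization, the strand setting or how reads matching several places or genes were treated. The table deposited by the authors holds log2 values of normalized counts with a floor of 10, as its values show.

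Differences between groups were tested with limma 3.58.1 (R 4.3.3), with its trend option, on the log2 values as deposited. The 6633 genes that exceeded the floor in 2 or more libraries entered, with two-sided tests, Benjamini-Hochberg adjustment over all of them and a threshold of 0.05. A conversion to log2 had been planned for linear values and was not needed. The fit was also run on simulated data with independent noise in each library. The libraries with the same number deviated together, so that run cannot show how the fit behaves here. Log2 changes are set2d minus WT. Names, roles, gene order, lengths and distance bands came from the ASM294v3 annotation, in which all 41 members were found. That build differs from the authors', so no coordinates or sequences are given. Copies were sought with BLAST 2.17.0 and overlaps counted from 20% of a gene's length. The alternatives were no trend, quantile normalization, median centring, other filters, 50 added to each value, single libraries left out, a replicate block, and leaving out members with copies or overlaps.

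The members and gene lists were chosen with earlier results of these data known. The rule for named genes took set2, up to 15 members that passed with the largest changes, any member that was lower, up to 6 that did not pass with the smallest unadjusted p, the outermost and innermost of each cosmid, every member with a symbol and the 4 left-out genes. The remaining members, the copies, and the neighbours and silencing genes with values were named after their values were seen.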

Additional observations from a re-analysis of the deposited data

How the results depend on the processing

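The count of 23 members higher became 21 to 22 under limma without a trend, quantile normalization, median centring, a minimum mean of 50 and 50 added to each value, and 8 with no filter on low values. It was 13 to 19 with single libraries left out, fewest without set2d replicate 2. None was lower in any of these fits. Without members that have a copy 20 were higher, and without overlapped members 17. Of the 23 calls, 7 held under every alternative fit. These 7 include SPBC1348.07, which has copies, and the overlapped genes grt1 and SPBPB10D8.02c. Leaving out members with copies or overlaps removes them. The median log2 change over the members stayed between 0.65 and 0.88. Among all genes, the counts higher and lower were 499 and 103 without a trend, 177 and 21 with no filter, 574 and 275 under quantile normalization, 617 and 343 under median centring, and 324 to 488 and 45 to 86 with single libraries left out. Of the 40 inward neighbours, 2 to 4 were higher and 0 lower with single libraries left out, and 0 and 0 passed with no filter. The other genes in the span that were higher numbered 11 with no filter and 15 to 21 with single libraries left out. The causes were not tested, but a fit without 1 library has fewer samples and only 1 library in a group.

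Members that did not pass changed sign in some fits. With single libraries left out, the log2 change of fex2 went from -0.32 to 0.24, and it was 0.16 without WT replicate 2. That of SPBPB10D8.04c ranged from -0.25 to 0.86, that of thi7 from -0.21 to 0.19 and that of pcl1 from -0.13 to 0.12. Libraries with the same number deviated together, with a correlation of 0.45 over genes between the number 1 minus number 2 differences of the groups, and their titles share a prefix, but the labels do not say what the prefix or the number stands for. With a replicate block by number 26 members were higher and 0 lower, the added calls being ftm6, SPBC1683.04 and cha4 (limma adjusted p = 0.012, 0.00185 and 0.0104), against 1380 and 847 of all genes. The block leaves fewer residual degrees of freedom than the 2 of the main fit. Its limma adjusted p for SPBC1348.11 was 1.9e-143, too small to take at face value from 4 libraries. The added calls are therefore not taken as gains. Below the floor of 10 no difference was detectable, and for members with copies the place the reads came from is uncertain. Quantile normalization and median centring moved the median of all tested genes to -0.07 and -0.08.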
